A study of Mus musculus with 20 samples.

Results

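The energy supply of the heart of the mouse embryo was followed through 35 genes, picked with earlier results of these data known. They were chosen by name from the 48795 genes of the table for what they are known to do. They comprised 3 transporters of glucose and lactate, 18 enzymes of glycolysis and lactate formation, 4 pyruvate dehydrogenase kinases, and 10 genes that are induced by hypoxia or that regulate the hypoxia-inducible factor HIF. RNA sequencing (RNAseq) had been carried out on whole hearts at E13.5, in mid-gestation, with 5 hearts in each of 4 groups. Dp3Tyb embryos carry an extra copy of a segment of mouse chromosome 16, written Dp(16Mir802-Zbtb21)3TybEmcf, and were compared with wildtype (WT) hearts labelled wt_d, from the same litters. Ts1Rhr embryos carry an extra copy of a shorter segment, Dp(16Cbr1-Fam3b)1Rhr, and were compared with littermate WT hearts labelled wt_t. No group had been given a drug and no other allele is named. All Dp3Tyb hearts are labelled as a model with heart defects, whereas the labels mark Ts1Rhr replicates 1 and 2 as having defects and replicates 3 to 5 as having none. The study's text treats Ts1Rhr embryos as lacking such defects, which conflicts with the label of replicates 1 and 2, so a comparison by that label is one of labels and not of a known phenotype. The labels do not say which litter a heart came from, and the p-values therefore measure the spread between these hearts.

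All 35 genes were detected in every heart, the thinnest value resting on 20 reads, and all passed the filter on low values, which asked for a normalised value of at least 10 in at least 5 libraries. The libraries held 6600839 to 19634514 reads. The share of reads from the 37 mitochondrially encoded genes ran from 4.85 to 19.5% and exceeded 10% in 7 hearts, namely replicate 5 of the Dp3Tyb littermates, Dp3Tyb replicate 5, replicates 1, 2 and 4 of the Ts1Rhr littermates, and Ts1Rhr replicates 1 and 2. Its median was 5.41% in WT littermates of Dp3Tyb, 5.93% in Dp3Tyb, 10.5% in WT littermates of Ts1Rhr and 6.12% in Ts1Rhr. Genes of the duplicated segments followed the genotype labels. The mean of Hmgn1 was 1.49-fold that of WT in Dp3Tyb and 1.47-fold in Ts1Rhr, and C2cd2, which lies beyond the Ts1Rhr segment, was at 1.70-fold in Dp3Tyb and 1.04-fold in Ts1Rhr. A list of 15 cardiomyocyte markers was abundant in every heart, its summed normalised value running from 372970 to 610532. The normalised value, used throughout for levels, is a read count divided by a scaling factor of its library.

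Glycolysis splits glucose into pyruvate in the cytosol and yields ATP without oxygen. Lactate dehydrogenase turns pyruvate into lactate, and the pyruvate dehydrogenase kinases keep pyruvate out of the mitochondrion by switching off pyruvate dehydrogenase. When oxygen is plentiful, HIF prolyl hydroxylases mark the HIF1 alpha protein for destruction by the von Hippel-Lindau protein. When oxygen is scarce, HIF1 alpha persists, pairs with ARNT and binds DNA at hypoxia response elements, whose core is read as ACGTG or GCGTG, in front of many glycolytic genes and of genes for blood vessel growth. The midgestation heart lives at low oxygen and relies heavily on glucose, and its cardiomyocytes turn towards mitochondrial respiration as development proceeds.

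The core ACGTG is common in front of these genes. RefSeq promoter sequences (assembly GRCm38.p6) were matched by symbol for 34 of the 35 genes, Ndrg1 not being matched. ACGTG, or CACGT on the other strand, lay in the 250 bases before at least 1 annotated start in 20 of those 34 genes (58.8%), against 18.5% of all 27025 genes with such a window. Counted by window, the shares were 46.9% of 49 and 16.6% of 32851. All 3 transporters had it, as did 8 of 18 enzymes of glycolysis, 2 of 4 kinases and 7 of 9 hypoxia genes. The second form, GCGTG or CACGC, was in 55.1% of the windows of these genes and in 28.2% of all windows. These are matches of letters, not bound sites. The genes had been chosen as glycolytic or hypoxia-inducible, and the set of all genes was not matched to them for base composition. The part of either in the excess was not tested. The windows of 6 genes are shown as examples from those with the core. They are a lactate exporter and lactate dehydrogenase A, whose levels follow the mitochondrial read share, and 4 hypoxia-inducible genes that stood out in single hearts. Windows of other genes with results are not shown, so these 6 windows do not tie the core to any result. Each is written 5′ to 3′ on the strand of the gene and ends at the base before the transcript start, with the ACGTG core of either strand in capitals, and CACGTG where both strands overlap.
Slc16a3, chr11:120948817-120949066, plus strand: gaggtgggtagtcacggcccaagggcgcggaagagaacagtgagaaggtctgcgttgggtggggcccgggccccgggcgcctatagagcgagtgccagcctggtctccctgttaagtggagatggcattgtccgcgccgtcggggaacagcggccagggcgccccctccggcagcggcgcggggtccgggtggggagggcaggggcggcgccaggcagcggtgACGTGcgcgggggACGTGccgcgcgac
Ldha, chr7:46845554-46845803, plus strand: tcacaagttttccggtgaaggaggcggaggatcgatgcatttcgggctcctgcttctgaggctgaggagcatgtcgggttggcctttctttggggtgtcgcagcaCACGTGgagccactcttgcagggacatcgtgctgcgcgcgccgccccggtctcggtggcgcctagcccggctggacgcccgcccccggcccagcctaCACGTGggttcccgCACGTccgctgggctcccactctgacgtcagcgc
Bnip3, chr7:138909507-138909756, minus strand: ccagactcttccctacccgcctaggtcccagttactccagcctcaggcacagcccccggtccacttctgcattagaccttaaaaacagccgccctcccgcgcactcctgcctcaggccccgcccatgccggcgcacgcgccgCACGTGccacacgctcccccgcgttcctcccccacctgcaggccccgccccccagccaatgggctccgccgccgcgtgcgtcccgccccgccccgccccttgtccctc
Ankrd37, chr8:45999851-46000100, minus strand: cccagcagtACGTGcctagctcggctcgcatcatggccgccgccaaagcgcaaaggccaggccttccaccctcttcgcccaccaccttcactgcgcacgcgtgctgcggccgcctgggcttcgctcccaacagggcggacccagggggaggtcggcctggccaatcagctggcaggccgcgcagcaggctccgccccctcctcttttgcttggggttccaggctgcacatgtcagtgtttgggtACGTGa
Egln3, chr12:54203875-54204124, minus strand: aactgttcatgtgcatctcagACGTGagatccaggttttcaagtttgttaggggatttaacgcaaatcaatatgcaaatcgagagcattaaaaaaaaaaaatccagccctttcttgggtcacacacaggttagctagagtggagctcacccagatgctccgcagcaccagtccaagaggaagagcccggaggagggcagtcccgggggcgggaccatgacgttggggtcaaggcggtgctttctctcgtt
Ddit4, chr10:59951771-59952020, minus strand: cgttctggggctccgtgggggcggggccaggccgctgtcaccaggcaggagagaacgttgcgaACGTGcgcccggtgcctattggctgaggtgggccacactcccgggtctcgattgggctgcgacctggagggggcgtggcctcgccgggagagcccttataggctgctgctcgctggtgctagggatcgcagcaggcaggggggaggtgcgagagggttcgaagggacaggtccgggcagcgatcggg
Ldha held 3 separate stretches with the core, of which 2 are the palindrome. Slc16a3 and Ankrd37 held 2 each and the other windows 1 each.

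Transcript levels in WT hearts covered a wide range. Levels of different genes are compared per kilobase of the Ensembl canonical transcript, as the mean ± SD of the 10 WT hearts of both cohorts. Gapdh, the glyceraldehyde-3-phosphate dehydrogenase of the energy-yielding steps, led with 30048 ± 1840 normalised reads per kilobase, and was the 23rd most abundant of all genes with a length. Aldoa, the muscle aldolase, followed at 9956 ± 930.1, Ldha at 9442 ± 974 and Pkm, the pyruvate kinase, at 8062 ± 617. Aldoa and Ldha differed by less than 1 SD. The hexokinase and phosphofructokinase steps were lower, with Hk1 (hexokinase 1) at 1481 ± 143 and the phosphofructokinase subunits Pfkp, Pfkl and Pfkm at 796 ± 81.1, 749 ± 142 and 561 ± 94.0, of which Pfkp and Pfkl lay within 1 SD of each other. Slc2a1, the glucose transporter GLUT1, was the most abundant transporter at 734 ± 67.6, Pdk1 the most abundant kinase at 708 ± 74.5, with Pdk3 at 692 ± 66.4 within its spread, and Hif1a the most abundant of the hypoxia group at 1035 ± 204. The lowest were Ankrd37 at 53.7 ± 25.0, Adm at 50.1 ± 14.4 and Aldoc, the brain-type aldolase, at 44.8 ± 11.3, 3 levels that do not differ beyond their spread.

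**Figure D1:**
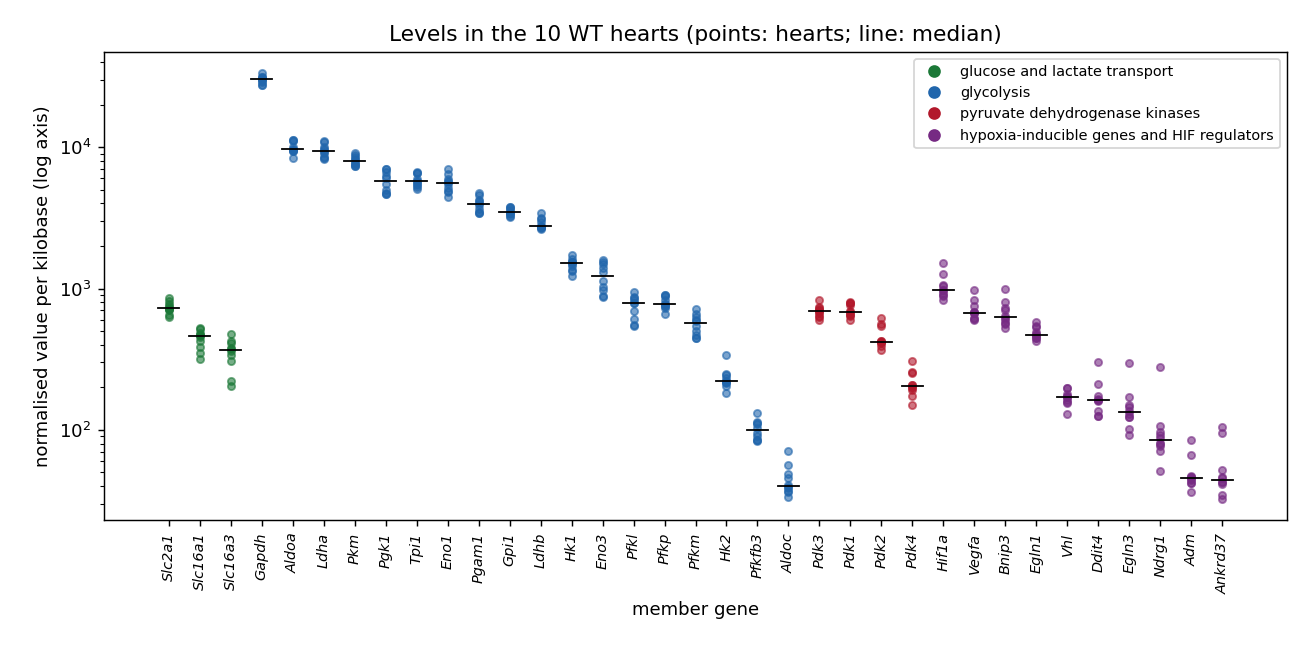
Levels of the 35 genes in the 10 WT hearts of both cohorts, as normalised value per kilobase on a log axis, 1 point per heart with a line at the median and genes ordered within their group. Glycolytic enzymes span the range from Gapdh, with a mean of 30048, to Aldoc, with a mean of 44.8, and 1 heart lies far above the rest for Ndrg1, Egln3 and Ddit4.

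Where 2 genes encode the same step, 1 of them usually dominated. The ratio of Ldha to Ldhb, which encode the muscle and heart subunits of lactate dehydrogenase, had a median of 3.22 per unit length in the WT hearts (range 2.92 to 3.56), so that the subunit named for the adult heart was the minor transcript. Hk2 stood at 0.155 of Hk1, and Eno3, the muscle enolase, at 0.208 of Eno1. Aldoc stood at 0.00434 of Aldoa. The phosphofructokinase genes were more even, with Pfkm at 0.761 and Pfkp at 1.03 of Pfkl, and so were the lactate transporters, Slc16a3 (MCT4) standing at 0.794 of Slc16a1 (MCT1). Pdk4 stood at 0.468 of Pdk2, and Egln3 at 0.273 of Egln1, both prolyl hydroxylases of HIF.

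To ask whether the extra chromosome 16 genes altered these transcripts, each strain was set against its own WT littermates with limma on log2(value + 1), with Benjamini-Hochberg adjustment over all genes tested, and a gene was called at an adjusted p below 0.05. In Dp3Tyb hearts none of the 35 genes was called, beside a background of 0.0542% of all 14763 genes (8 genes). None had an unadjusted p below 0.05, where 413 of all genes did, and DESeq2 and edgeR called none either. In no gene did the 5 Dp3Tyb values lie apart from the 5 WT values, beside 0.975% of all genes whose groups did not overlap. By direction 8 of the 35 log2 fold changes were positive and 27 negative, with a median of -0.05, against 7221 positive and 7542 negative and a median of -0.003 over all genes. The median of the 35 genes ran from -0.09 to -0.006 as single hearts were left out. The medians of the groups were -0.02 for the transporters, -0.05 for glycolysis, -0.05 for the kinases and -0.09 for the hypoxia group, in which 9 of 10 were negative. These medians were unstable. Without Dp3Tyb replicate 4 that of glycolysis was 0.021, and without replicate 5 it was 0.00028. That of the kinases was 0.026 without WT replicate 5 and 0.0025 without Dp3Tyb replicate 4, and that of the transporters ran from -0.14 to 0.10 as single hearts were left out, turning positive without any of WT replicates 2, 3 and 4 and Dp3Tyb replicates 4 and 5. The median of the hypoxia group stayed negative, from -0.14 to -0.02. Most marker lists of cell types also leaned to one side. Of the cardiomyocyte genes 12 of 15 were negative (median -0.10). Positive were 9 of 10 mesenchyme genes (0.13), 11 of 12 erythroid genes (0.18) and 11 of 11 macrophage genes (0.30). So were 10 of 10 lung and foregut genes (1.83), 7 of 9 epicardial genes (0.03) and 6 of 10 endothelial genes (0.03). None of these markers was called, and their part in the values of the 35 genes was not tested. In whole hearts, fewer cells of a type and less RNA per cell cannot be told apart.

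**Figure D2:**
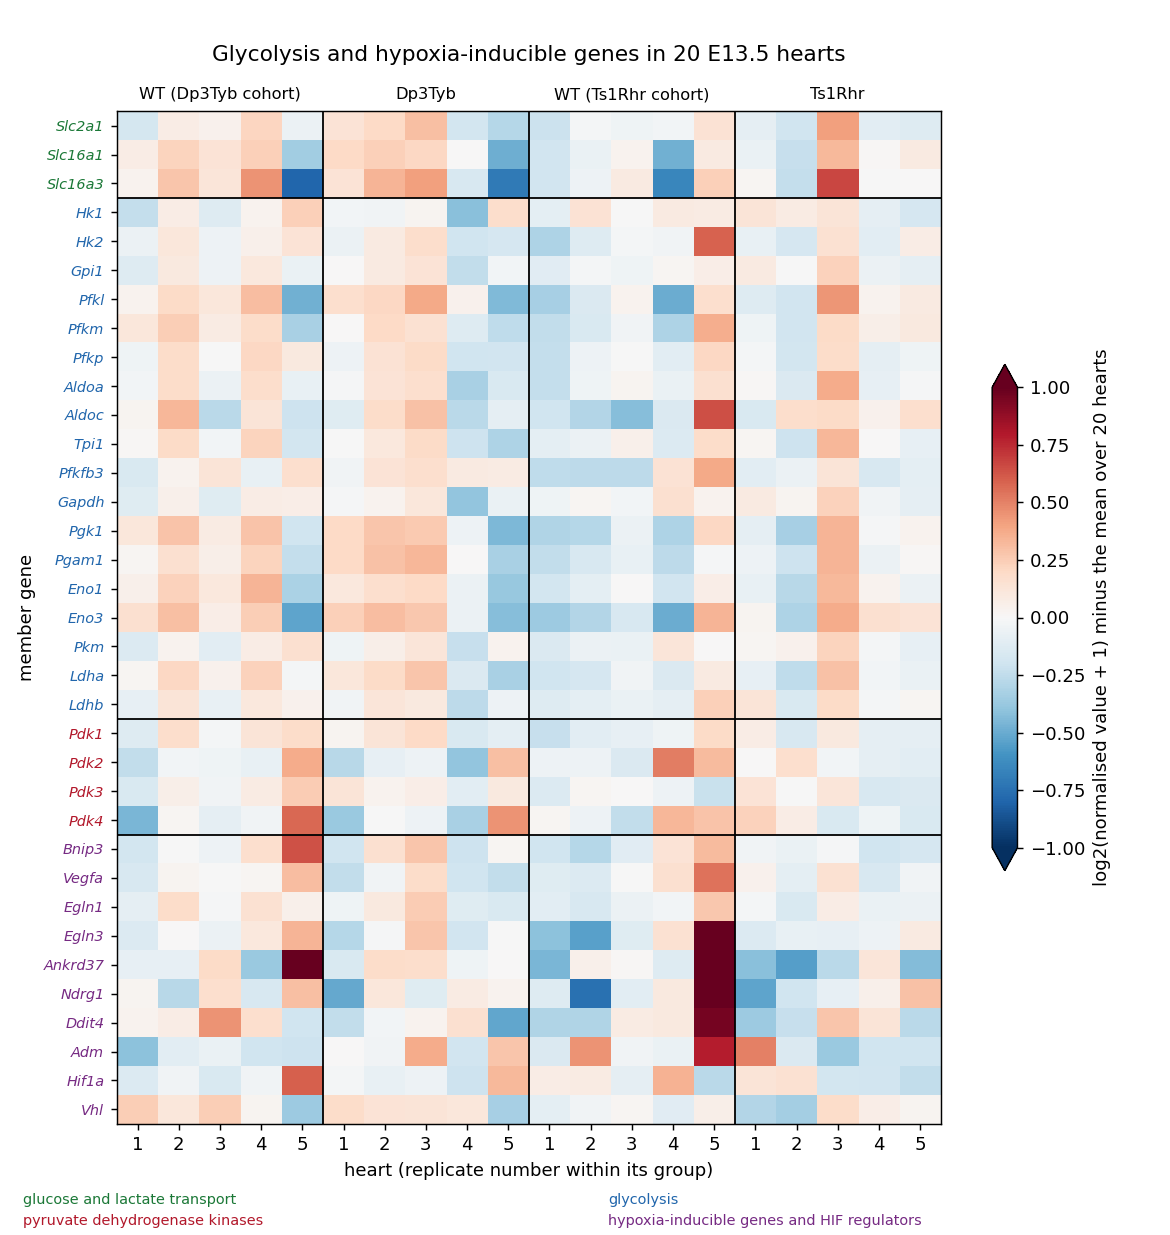
Each of the 35 genes (top to bottom, coloured and ordered by role) in each of the 20 hearts (left to right, by group and replicate), as log2(normalised value + 1) minus the mean over the 20 hearts, with colours limited to 1 either way. Replicate 5 of both WT groups, Dp3Tyb replicate 5 and Ts1Rhr replicate 3 stand out from their groups, and no gene separates a mutant group from its WT group.

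In the transport group the change of largest size in Dp3Tyb was that of Slc16a1, the monocarboxylate transporter MCT1, which moves lactate and pyruvate across the plasma membrane. Its normalised values were 2147, 2387, 2240.4, 2409 and 1609 in WT replicates 1 to 5 and 2349, 2407, 2355, 2044 and 1452 in Dp3Tyb. The groups overlapped, the lowest heart of each being the one with the highest mitochondrial share of its group, and the log2 fold change was -0.03 (SE 0.155, limma adjusted p = 1.0), a sign that turned when any of 3 hearts was left out. Slc2a1 read 2891, 3439, 3364, 3799 and 3136 in WT and 3596, 3755, 4031, 2874 and 2683 in Dp3Tyb hearts. Its values lay on both sides of WT, with a fold of 1.01 and a 95% interval of 0.840 to 1.22.

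Among the glycolytic enzymes Pfkp, the platelet-type phosphofructokinase of the committing step, had the largest change, with 3256, 3819, 3342, 3869 and 3594 in WT and 3236, 3712, 3829.9, 2926 and 2939.9 in Dp3Tyb. The ranges overlapped, the 2 lowest values being Dp3Tyb replicates 4 and 5, and the log2 fold change was -0.11 (SE 0.0945, adjusted p = 1.0), or -0.07 when the first or the second of them was left out. Gapdh read 38884, 43842, 38929, 44648 and 44205 in WT and 42073, 43484, 45781, 32149 and 40487 in Dp3Tyb hearts. Dp3Tyb replicate 4 was the lowest and replicate 3 the highest of these 10, and the fold was 0.964 with an interval of 0.821 to 1.13. The 95% intervals were narrow enough to bound the enzymes: all 18 lay inside a 1.5-fold change either way, reaching from 0.762-fold to 1.33-fold.

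Of the kinases, Pdk2, a broadly expressed family member, read 845, 985, 973, 951 and 1298 in WT and 829, 947, 969, 761 and 1235 in Dp3Tyb hearts. Replicate 5, the heart with most mitochondrial reads, was highest in both groups, and the log2 fold change was -0.10 (SE 0.141, adjusted p = 1.0). It became -0.0032 without WT replicate 5 and -0.20 without Dp3Tyb replicate 5. Pdk1, the HIF-responsive kinase, gave a fold of 0.969 from 3369.9, 4184, 3642, 4033 and 4189.7 in WT and 3763, 4047, 4244, 3323 and 3457 in Dp3Tyb.

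The hypoxia group held the largest change of all. Adm, which encodes the vasodilator peptide adrenomedullin, read 51.0, 63.2, 64.9, 59.1 and 58.7 in WT hearts and 68.1, 66.5, 88.1, 59.3 and 82.5 in Dp3Tyb hearts. Of the Dp3Tyb hearts 4 lay above the highest WT value and 1 among the WT values, giving a log2 fold change of 0.28 (SE 0.138, 95% interval -0.02 to 0.59, unadjusted p = 0.0659, adjusted p = 1.0). The largest fall in size was that of Ddit4, an inhibitor of mTORC1, at -0.23 (SE 0.148), with overlapping groups. Hif1a read 6178, 6654, 6109, 6632 and 10297 in WT and 6722, 6442, 6554, 5892 and 8513 in Dp3Tyb hearts. Replicate 5 was the highest heart of both groups, and the fold was 0.963 with an interval of 0.767 to 1.21. Adm and Ankrd37 were the 2 of 35 genes whose 95% interval reached beyond a 1.5-fold change. With the mitochondrial share as a covariate no gene was called (0.305% of all genes were), all 35 intervals lay inside 1.5-fold, and Ddit4 and Adm reached unadjusted p-values of 0.0248 and 0.049 (adjusted 0.382 and 0.454), where 1626 of all 14763 genes had one below 0.05.

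**Figure D3:**
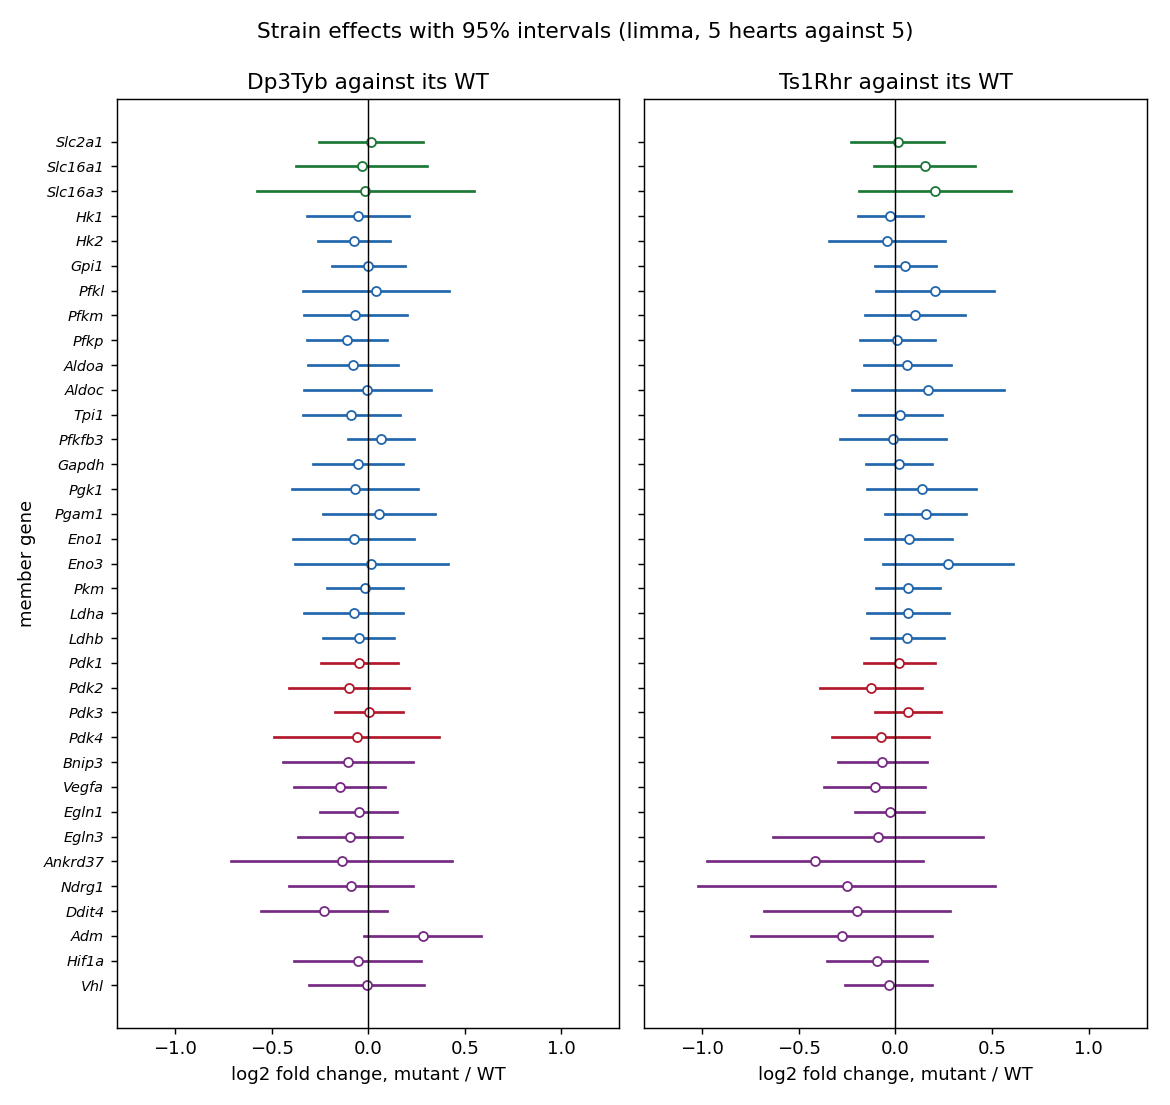
Log2 fold change of each gene with its 95% interval, Dp3Tyb (left) and Ts1Rhr (right) each against 5 WT littermates, coloured by role as in the heat map. Every interval includes 0, and the widest belong to Ankrd37 and Ndrg1 in Ts1Rhr.

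In Ts1Rhr hearts, likewise, none of the 35 genes was called, beside 0.0269% of all 14867 genes (4 genes), none had an unadjusted p below 0.05 (821 of all genes did), and DESeq2 and edgeR called none. Values overlapped in all 35 genes, beside 1.12% of all genes whose groups did not. The signs were 20 positive and 15 negative with a median of 0.02, against 7374 and 7493 and a median of -0.002 over all genes. The median of the 35 genes ran from -0.04 to 0.07 as single hearts were left out. By role, all 3 transporters (median 0.15), 15 of 18 glycolytic enzymes (median 0.06), 2 of 4 kinases (median -0.03) and none of the 10 hypoxia genes (median -0.10) were positive, and differences between roles were not tested. The median of glycolysis became -0.0082 without Ts1Rhr replicate 3 and ran up to 0.11 when other hearts were left out, and that of the kinases turned to 0.0062 without WT replicate 4 and to 0.0039 without WT replicate 5. The median of the transporters was 0.060 without Ts1Rhr replicate 3 and 0.062 without WT replicate 4. That of the hypoxia group was -0.18 without WT replicate 1, -0.19 without WT replicate 2 and -0.38 without the 5 hearts of over 10% mitochondrial reads. Intervals of 28 genes lay inside a 1.5-fold change, those of Adm, Ankrd37, Ddit4, Egln3, Eno3, Ndrg1 and Slc16a3 reaching beyond it.

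Slc16a3, the monocarboxylate transporter MCT4 that exports lactate from glycolytic cells, read 1443, 1591, 1758, 1049 and 1947 in WT and 1673, 1402, 2624, 1648 and 1650.4 in Ts1Rhr hearts. Ts1Rhr replicate 3 was the highest and WT replicate 4 the lowest, with the other hearts interleaved, for a log2 fold change of 0.20 (SE 0.181, adjusted p = 0.795) that became 0.060 without Ts1Rhr replicate 3 and 0.070 without WT replicate 4. Eno3, the muscle enolase, read 1695, 1784, 1955, 1550.3 and 2773 in WT and 2230.0, 1766, 2828, 2443 and 2400.3 in Ts1Rhr. Of the 5 Ts1Rhr hearts 4 exceeded WT replicates 1 to 4, and the log2 fold change was 0.27 (SE 0.155, 95% interval -0.06 to 0.61, adjusted p = 0.795), or 0.20 to 0.41 as single hearts were left out. Pdk2 read 965, 968, 906, 1432 and 1248 in WT and 1005, 1129, 981, 939.8 and 929.7 in Ts1Rhr, with a log2 fold change of -0.13 (SE 0.120, adjusted p = 0.797). WT replicates 4 and 5 were the 2 highest hearts for Pdk2, and the value was -0.03 without the first and -0.08 without the second.

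The most abundant gene of each role differed little between Ts1Rhr hearts and their WT littermates on average. Slc2a1 read 2817, 3226, 3164, 3196 and 3601 in WT and 3072, 2844, 4339.9, 3036 and 2982 in Ts1Rhr hearts, a fold of 1.01 with an interval of 0.853 to 1.19. Gapdh read 41192, 42886, 41473, 47292 and 43332 in WT and 45033, 43208, 49746, 41217 and 39846 in Ts1Rhr, a fold of 1.01 (0.899 to 1.14). Ts1Rhr replicate 3 was the highest of these 10 hearts for both genes. Pdk1 read 3142, 3439, 3488, 3583 and 4209 in WT and 3886, 3297, 3959, 3469.9 and 3469.6 in Ts1Rhr, a log2 fold change of 0.02 (SE 0.0835). Hif1a read 7158, 7199, 6374, 8639.7 and 5636 in WT and 7417, 7569.9, 5976, 5939 and 5738 in Ts1Rhr, a fold of 0.935 (0.782 to 1.12). Its lowest and highest hearts were both WT.

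In the hypoxia group the largest value was that of Ankrd37, an ankyrin repeat gene known as a HIF target. It read 30.2, 43.4, 42.1, 38.3 and 88.1 in WT and 31.1, 28.3, 34.6, 45.5 and 30.7 in Ts1Rhr hearts. WT replicate 5 was by far the highest of these 10 hearts, and the log2 fold change of -0.42 (SE 0.257, 95% interval -0.98 to 0.14, adjusted p = 0.795) became -0.18 without that heart. With the mitochondrial share as a covariate Ankrd37 was at -0.55 (unadjusted p = 0.027, adjusted p = 0.603), as 1 of 35 genes with an unadjusted p below 0.05 beside 1119 of all 14867 (7.53%). No gene was called (0.168% of all genes were), and the signs were 17 positive and 18 negative. Under that covariate the median of the transporters was 0.05, that of glycolysis 0.02 with 13 of 18 positive, and that of the hypoxia group -0.15 with 9 of 10 negative.

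The same WT heart set much of the direction in the hypoxia group. Without WT replicate 5 of the Ts1Rhr cohort, 6 of the 10 hypoxia genes were positive in Ts1Rhr and their median was 0.01 in place of -0.10, while 17 of 18 glycolytic enzymes were positive with a median of 0.11. None of the 35 genes was called without it, where 6 of all 14775 genes were (0.0406%), the smallest adjusted p of the 35 being 0.423, shared by Eno3 at a log2 fold change of 0.41 (SE 0.121) and Aldoc at 0.35 (SE 0.114). The mitochondrial share of the remaining hearts differed by genotype, as given above, and its part in this was not tested in that comparison.

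Whether the strains differed from each other was tested as the Dp3Tyb effect minus the Ts1Rhr effect over all 20 hearts. None of the 35 genes was called, beside 0.013% of all 15348 genes (2 genes), nor with the mitochondrial share as a covariate, beside 0.0195% (3 genes). The difference was negative in 17 of 18 glycolytic enzymes with a median of -0.12, where 7731 of all genes were positive and 7617 negative, and the hypoxia group had a median of 0.01. The 18 values come from the same hearts and are not independent. In each strain the glycolysis median against WT changed sign when certain single hearts were left out. In the same contrast 9 of 10 lung and foregut markers were positive (median 3.40, 7 of them with an unadjusted p below 0.05), 9 of 10 endothelial markers negative (median -0.05) and 8 of 10 mesenchyme markers positive (median 0.10), none of them called, and their part in it was not tested. Adm differed most, being 0.28 higher than WT in Dp3Tyb and 0.28 lower in Ts1Rhr on the log2 scale, a difference of 0.56 (SE 0.261, unadjusted p = 0.0441, adjusted p = 1.0). In the Ts1Rhr cohort its values were 61.5, 93.3, 66.3, 65.1 and 118 in WT and 97.0, 61.5, 52.4, 59.3 and 59.2 in Ts1Rhr hearts, so that WT replicates 2 and 5 and Ts1Rhr replicate 1 carried the spread.

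Ratios of paired genes within a heart do not depend on how the library was scaled, and 9 of them were compared in each strain by a 2-sided exact permutation test over all splits of 10 hearts into 5 and 5, for which the smallest possible p is 0.00794. With adjustment over 18 tests a single changed ratio could reach no less than 0.143, so that no ratio could pass alone and the tests cannot show whether a single ratio changed. The smallest p was that of Pfkp to Pfkl in Ts1Rhr, where the log2 ratio was 0.19 lower than in WT (exact p = 0.0714, adjusted p = 0.929 over the 18 tests), followed by Eno3 to Eno1 in Ts1Rhr at 0.20 higher (exact p = 0.103, adjusted p = 0.929). The Ldha to Ldhb log2 ratio was 1.80 ± 0.185 in Dp3Tyb and 1.83 ± 0.0796 in its WT (SD, n = 5, exact p = 0.873), and 1.69 ± 0.115 in Ts1Rhr and 1.69 ± 0.0657 in its WT (exact p = 0.976).

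Ts1Rhr hearts labelled with defects (2 hearts) and without (3 hearts) were compared, by a label that conflicts with the study's text, in a fit with their WT littermates. No gene of the 35 and none of all 14867 (0.0%) was called by limma, although 2448 of all genes had an unadjusted p below 0.05 and DESeq2 called 3 genes. Of the 35, Hif1a and Vhl had an unadjusted p below 0.05. Vhl, the von Hippel-Lindau ubiquitin ligase subunit, read 382 and 370.0 in the hearts labelled with defects and 532, 491 and 478 in those without. The groups did not overlap, as in 13 of the 35 genes and in 46.8% of all genes in this split, and the log2 difference was -0.41 (SE 0.0957, unadjusted p = 0.00111, adjusted p = 0.292). Hif1a, which encodes the oxygen-regulated subunit of HIF, read 7417 and 7569.9 against 5976, 5939 and 5738, again apart, at 0.35 (SE 0.141, unadjusted p = 0.0295, adjusted p = 0.292). Both hearts labelled with defects had over 10% mitochondrial reads (11.6 and 13.1%) and the other 3 hearts had less. With the share as a covariate, limma put Hif1a at 0.02 (unadjusted p = 0.764) and Vhl at -0.30 (unadjusted p = 0.0102), both at an adjusted p of 0.998. Adm was at 0.81 (unadjusted p = 0.0268, adjusted p = 0.998). In that fit 511 of all 14867 genes had an unadjusted p below 0.05. The median over the 35 genes moved from -0.12 to 0.06. Within Ts1Rhr, the label and a share above 10% cannot be told apart.

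The hearts of a group also differed among themselves. The SD of log2(value + 1) among hearts of a group, pooled over the 4 groups, had a median of 0.205 over the 35 genes, against 0.224 over all 15348 genes. It was 0.180 for glycolysis and 0.267 for the hypoxia group. The most even genes were Gpi1, the glucose-6-phosphate isomerase, at 0.117 and Pkm at 0.120, and the least even were Ndrg1 at 0.510, Ankrd37 at 0.441, Slc16a3 at 0.409 and Egln3 at 0.364. To set this spread against the mitochondrial read share, each gene was fitted over all 20 hearts with a mean for each genotype group and a slope on the share, given here per 10 percentage points.

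The slope was called in 17 of the 35 genes, 5 upwards and 12 downwards. This is a share of 48.6%, beside 61.4% of all 15348 genes (29.7% upwards and 31.7% downwards), so the 35 genes were called no more often than genes at large. Whether roles differed from each other was not tested. Of the transporters 2 of 3 were called, both downwards (median slope -0.46), and of the glycolytic enzymes 8 downwards and 1 upwards of 18 (median -0.17). Of the kinases 3 of 4 were called, all upwards (median 0.25), and in the hypoxia group 1 upwards and 2 downwards of 10 (median 0.01). The median over all genes was -0.02. In the levels that follow, the 13 hearts with a share of at most 10% are set beside the 7 with more, for description only. How many of all genes lie apart between the 13 and the 7 was not counted. A lack of overlap therefore cannot be read as particular to these genes.

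Both lactate transporters were lower in hearts with more mitochondrial reads. Slc16a3 ran from 1479 to 2624 with a median of 1811 in the 13 hearts, and from 954 to 1673 with a median of 1402 in the 7. Of the 7 hearts 5 lay below all of the 13, and the slope was -0.73 (SE 0.108, adjusted p = 1.44e-05). Slc16a1 ran from 2044 to 2560.2 (median 2240.4) in the 13 hearts and from 1452 to 1955 (median 1739) in the 7. These ranges did not overlap, and the slope was -0.46 (SE 0.0513, adjusted p = 3.63e-08). Slc2a1 had a slope of -0.18 that was not called (adjusted p = 0.103).

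Of the 18 glycolytic enzymes, 8 fell with the share. Pfkl, the liver-type phosphofructokinase, ran from 3219 to 4283 (median 3534) in the 13 hearts and from 2236 to 2886 (median 2508) in the 7, without overlap, with a slope of -0.53 (SE 0.0603, adjusted p = 1.17e-07). Pgk1, the phosphoglycerate kinase that makes ATP, ran from 10069.9 to 13288 (median 11996) and from 7676 to 9832 (median 8509.6), with a slope of -0.41 (SE 0.0727, adjusted p = 6.2e-05). Eno1, the general enolase, ran from 12104 to 16039 (median 13585) and from 9732 to 12001 (median 11097), with a slope of -0.36 (SE 0.0578, adjusted p = 1.02e-05). None of these 3 genes had any of the 7 hearts within the range of the 13.

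Eno3 had the steepest slope of the enzymes, -0.56 (SE 0.0704, adjusted p = 7.58e-07), with 1955 to 2828 (median 2584) in the 13 hearts and 1518 to 2230.0 (median 1695) in the 7. Pfkm, the muscle phosphofructokinase, had a slope of -0.37 (SE 0.0554, adjusted p = 4.6e-06), with 2032 to 2860.0 (median 2411) and 1782 to 2165 (median 1879). Pgam1, the phosphoglycerate mutase, had a slope of -0.32 (SE 0.0607, adjusted p = 0.000115), with 6973 to 9268 (median 7642) and 5848 to 7059 (median 6216). In each of these 3, 6 of the 7 hearts lay below all of the 13.

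Smaller slopes belonged to Tpi1, the triosephosphate isomerase, at -0.25 (SE 0.0646, adjusted p = 0.00203), which ran from 8022 to 11656 (median 9548) and from 7446 to 9351 (median 8412). Ldha fell with a slope of -0.22 (SE 0.0698, adjusted p = 0.00863), from 13485 to 18294 (median 15834) in the 13 hearts against 11899 to 14680.1 (median 13248) in the 7. Both genes overlapped, Tpi1 having 2 and Ldha 5 of the 7 hearts below all of the 13. Hk1, the general hexokinase, was the only enzyme of the 18 called upwards, at 0.20 (SE 0.0670, adjusted p = 0.0159), from 4658 to 6790.0 (median 6096) against 5821 to 7358 (median 6820.4). Gapdh, Pkm, Gpi1, Aldoa, Aldoc, Hk2, Pfkp, Pfkfb3 and Ldhb were not called, their slopes lying between -0.19 and 0.10.

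Pyruvate dehydrogenase kinases rose with the share, except Pdk1 at -0.02 (adjusted p = 0.799). Pdk4, the kinase induced by fasting and fatty acids, ran from 561 to 943 (median 724) in the 13 hearts and from 746 to 1148 (median 908) in the 7, with a slope of 0.46 (SE 0.0896, adjusted p = 0.000178). Pdk2 ran from 761 to 1248 (median 947) and from 965 to 1432 (median 1129), with a slope of 0.36 (SE 0.0759, adjusted p = 0.000373). Pdk3 was called least firmly, at 0.13 (SE 0.0516, adjusted p = 0.0294), from 1465 to 1878 (median 1723) against 1560.3 to 2041 (median 1741). All 3 overlapped between the 13 and the 7 hearts.

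In the hypoxia group Hif1a, Vhl and Ddit4 were called and the other 7 genes were not. Hif1a had the smallest adjusted p of the 35 genes, with a slope of 0.48 (SE 0.0322, adjusted p = 8.48e-12), from 5636 to 6722 (median 6178) in the 13 hearts and from 7158 to 10297 (median 7569.9) in the 7. All 7 lay above all 13. Vhl, whose product targets HIF1 alpha for destruction, fell with a slope of -0.38 (SE 0.0504, adjusted p = 5.78e-07), from 475 to 556 (median 507) against 364 to 456 (median 382), with all 7 hearts below all 13. Ddit4 fell with a slope of -0.41 (SE 0.140, adjusted p = 0.0163), from 226 to 531 (median 288) against 190.2 to 293 (median 221), with overlap. Bnip3, Vegfa, Egln1, Egln3, Ankrd37, Ndrg1 and Adm were not called, with slopes between -0.14 and 0.21.

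**Figure D4:**
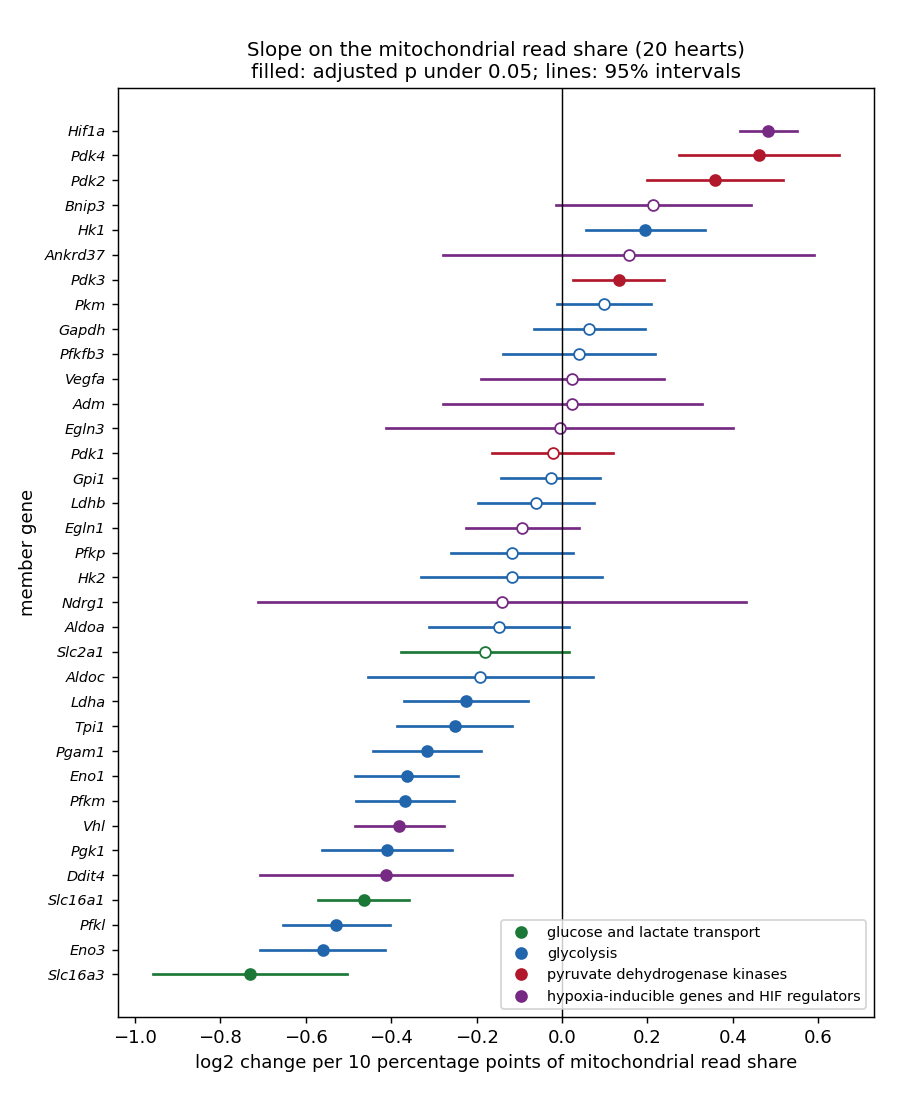
Slope of each gene on the mitochondrial read share over 20 hearts, as log2 change per 10 percentage points with its 95% interval, coloured by role, and filled where the adjusted p was below 0.05. Slc16a3, Eno3 and Pfkl lie lowest, Hif1a and 3 kinases are on the upper side, and intervals of Ankrd37, Egln3 and Ndrg1 are the widest.

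Of the 17 called genes, 11 were called in the Dp3Tyb cohort alone, in the Ts1Rhr cohort alone and under every other alternative, while Hk1, Ldha, Pdk2, Pdk3, Pdk4 and Ddit4 lost the call under at least 1 of them. Without Dp3Tyb replicate 5, Hk1, Ldha and Ddit4 were not called and 14 of the 35 genes were, beside 8746 of all 15312 (57.1%); without WT replicate 5 of the Dp3Tyb cohort Hk1 and Pdk3 were not, and without that of the Ts1Rhr cohort Pdk3 was not. Hif1a had slopes of 0.47 and 0.51 in the Dp3Tyb and Ts1Rhr cohorts, Vhl of -0.40 and -0.34, Slc16a3 of -0.76 and -0.68 and Pgk1 of -0.38 and -0.47. Ankrd37 went opposite ways, at 0.61 in the Dp3Tyb cohort (adjusted p = 0.012) and -0.65 in the Ts1Rhr cohort (adjusted p = 0.0977), its 2 highest hearts being WT replicate 5 of each cohort. These 2 hearts had shares of 19.5 and 5.84%. The share moved with depth, the 2 libraries with the largest shares also holding the fewest reads, and with the logarithm of the read total as a covariate 14 of the 35 genes were called, beside 5686 of all 15348 (37.0%). Among cell type markers, to be read beside 61.4% of all genes, the slope was called in 8 of 13 erythroid genes (61.5%), 7 of them downwards, 8 of 11 macrophage genes (72.7%), 7 downwards, 6 of 10 mesenchyme genes (60.0%), 3 each way, and 5 of 9 epicardial genes (55.6%), 3 downwards. Of 15 cardiomyocyte genes 13 were called (86.7%), 9 upwards and 4 downwards, and of 10 endothelial genes 8 (80.0%), 4 each way. The part of RNA quality, dissection and cell makeup in these slopes was not tested.

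The largest departures from the group means lay in single hearts, which were singled out after their values had been seen. Replicate 5 of the WT littermates of Ts1Rhr was the highest of all 20 hearts for 12 of the 35 genes (34.3%), beside 6.12% of all 15348 genes. The 12 were Hk2, Pfkm, Pfkp, Aldoc, Pfkfb3, Ldhb, Vegfa, Egln1, Egln3, Ndrg1, Ddit4 and Adm, and thus 6 of the 10 hypoxia genes. The median of the 10 hypoxia genes was 1.66-fold the median of the other hearts, that of the 18 glycolytic enzymes 1.13-fold. Hif1a itself was lowest of all 20 in this heart, at 5636.

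Ndrg1, a stress-responsive gene known for induction by hypoxia, read 894 in that heart and 253, 165, 257 and 297 in the other hearts of its group. The other 19 hearts ran from 165 to 341, so that it stood 3.40-fold above their median. Egln3, the prolyl hydroxylase PHD3 that HIF itself induces, read 794 against 248 to 461 in the other hearts, or 2.27-fold their median. Both values lay far outside the range of the other hearts.

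Ddit4 read 531 against 190.2 to 373 (1.89-fold the median), Adm 118 against 51.0 to 97.0 (1.85-fold) and Vegfa, the vascular growth factor, 3362 against 1949.7 to 2868 (1.49-fold). Among glycolytic genes Aldoc read 196 against 93.2 to 158 (1.67-fold) and Hk2, the inducible hexokinase, 2634 against 1418 to 1978 (1.56-fold). In contrast Gapdh stood at 1.01-fold, Pkm at 0.989-fold and Pgam1 at 0.985-fold the median of the others. This heart had a mitochondrial share of 5.84% and 17987138 reads, neither of them extreme. Its erythroid markers summed to 245713, above the range of the other 19 hearts from 35728 to 185887, and the part of blood content in these values was not tested. Its 15 cardiomyocyte markers, at 494176, lay inside the range of the others.

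**Figure D5:**
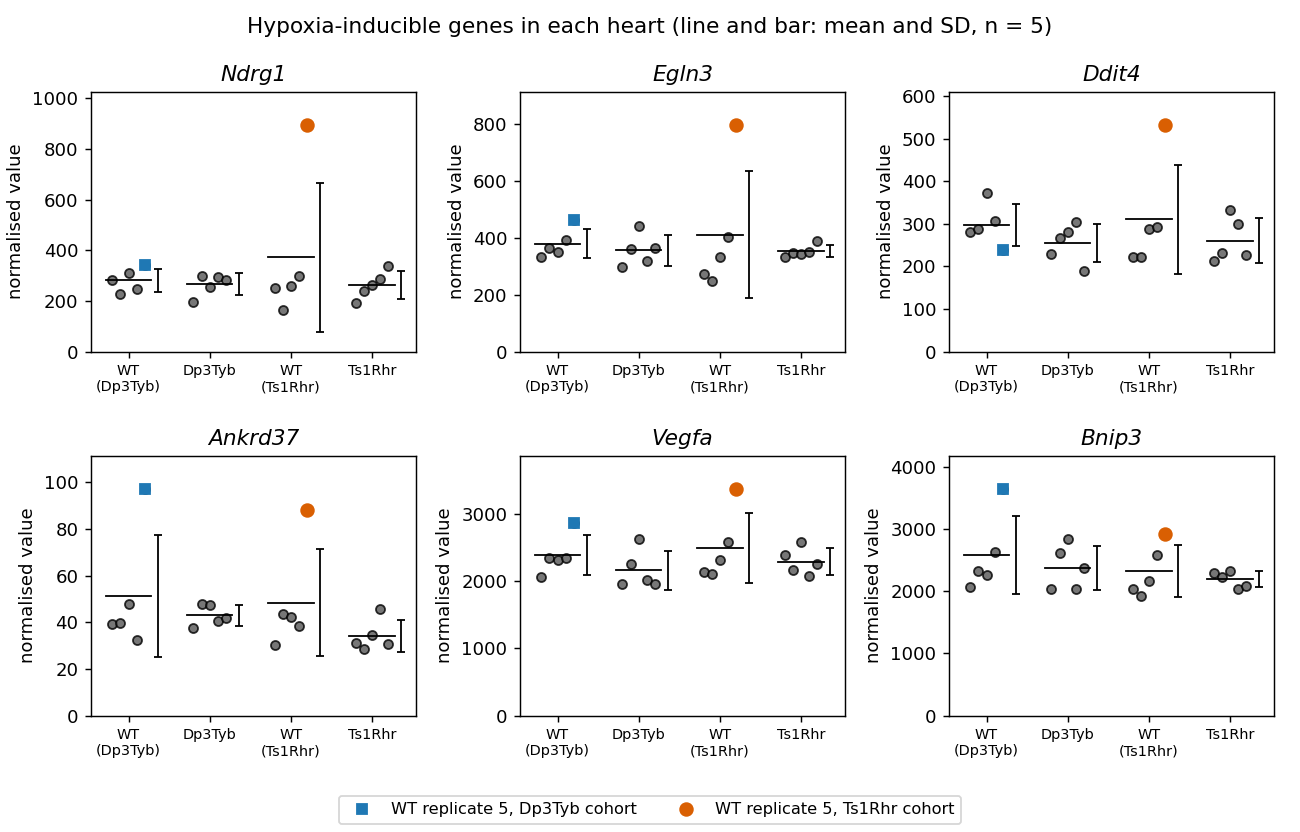
Normalised values of 6 hypoxia-inducible genes in each heart, with a line at the mean and a bar of 1 SD (n = 5 in each group). WT replicate 5 of the Ts1Rhr cohort (orange circle) lies above the other hearts for Ndrg1, Egln3, Ddit4 and Vegfa, and WT replicate 5 of the Dp3Tyb cohort (blue square) is highest for Ankrd37 and Bnip3.

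A second WT heart, replicate 5 of the Dp3Tyb littermates, was highest for Bnip3, a mitophagy receptor, at 3641 against 1925 to 2920 in the other hearts, for Ankrd37 at 96.9 and for Hif1a at 10297, as well as for Hk1, Pdk3 and Pdk4. These 6 of 35 genes (17.1%) stand beside 22.3% of all genes that were highest in this heart, which had the largest mitochondrial share, 19.5%, and the fewest reads. In Ts1Rhr replicate 3, 13 of the 35 genes were highest (37.1%), where 2075 of all 15348 genes were. They included all 3 transporters and 10 of the 18 glycolytic enzymes and none of the hypoxia genes. Relative to the median of the other hearts, the log2 difference had a median of 0.27 over the glycolytic enzymes there and of 0.01 over the hypoxia genes.

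Other genes of these pathways were taken from lists of known members. Of 37 further genes of glycolysis and pyruvate use, 30 were tested in Dp3Tyb and 29 in Ts1Rhr. None was called in either strain, with medians of -0.02 and 0.06. The largest changes were those of Hkdc1, a hexokinase-like gene, at 1.09 in Dp3Tyb (adjusted p = 1.0) and of Hk3, the hexokinase of white blood cells, at 0.87 in Ts1Rhr (adjusted p = 0.795). Both lay near the filter value of 10, with medians of 10.4 and 18.0 over the 20 hearts. Of 39 further HIF targets and regulators none was called in either strain, with medians of 0.02 and 0.05. Angptl4, a lipoprotein lipase inhibitor, was at 0.34 in Dp3Tyb and Car9, the membrane carbonic anhydrase, at 0.37 in Ts1Rhr, neither being called. Car9 was also near the filter value, with a median of 17.1.

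On the mitochondrial share, 6 of 31 further glycolysis and pyruvate genes had a called positive slope and 12 a negative one, or 58.1% in all beside 61.4% of all genes. Upwards were Dld, a subunit of pyruvate dehydrogenase, at 0.33 and Mpc1, of the mitochondrial pyruvate carrier, at 0.36, while Mpc2, its partner in the carrier, was at -0.44. Downwards were also Hk3 at -0.57 and Pfkfb4, a regulator of phosphofructokinase, at -0.56. Of the 39 further HIF genes 6 were called upwards and 12 downwards (46.2% in all), among them Kdm4b, a histone demethylase, at -0.57, Cited2, which competes with HIF1 alpha for its coactivator, at 0.41, and Stc1, the hormone stanniocalcin, at 0.55. Angptl4 was at -0.60. In replicate 5 of the Ts1Rhr littermates, 14 of the 39 further HIF genes were highest of 20 hearts (35.9%, beside 6.12% of all genes), among them Bhlhe40, a circadian repressor, at 1067 against 375 to 881, and Ccng2, a cell cycle inhibitor, at 1087 against 551 to 840.1. Of the 31 further glycolysis genes it was 6 (19.4%).

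No marker of another cell type in the fixed lists was called in either strain. The 13 erythroid markers summed to 35728 to 73130 in WT littermates of Dp3Tyb, 47321 to 86854 in Dp3Tyb, 67868 to 245713 in WT littermates of Ts1Rhr and 117939 to 185887 in Ts1Rhr. Macrophage markers summed to 1339 to 2283, 2005 to 2433, 1633 to 1964 and 1699 to 2609 in the same order, 8 liver markers to no more than 235 in any heart, and 11 lung and foregut markers to 737 to 1917. The defining lung genes Sftpc and Nkx2-1 had medians of 0 and 15.8 over the 20 hearts. All 10 lung and foregut markers tested had positive log2 fold changes in Dp3Tyb (median 1.83), and 9 of 10 had negative ones in Ts1Rhr (median -1.59), none of them called. In Ts1Rhr 12 of 13 erythroid genes (median 0.23) and 10 of 11 macrophage genes (median 0.31) were positive, and 9 of 15 cardiomyocyte genes negative (median -0.02). The part of such cells and tissue in the values of the 35 genes was not tested.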

How the data were processed

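RNA from 20 E13.5 hearts had been made into KAPA mRNA HyperPrep libraries and sequenced on an Illumina instrument. The submitters' processing notes name Trimmomatic 0.36, STAR 2.5.2a, RSEM 1.2.31, DESeq and DESeq2 and build GRCm38. Whether strand was used is not given in the sources used here. The deposited values are a normalised signal, expected counts rounded and divided by DESeq-type size factors by the authors: multiplied back, 100.0% of values were whole reads (tolerance 1e-06). The libraries held 6600839 to 19634514 reads. Genes were matched to GENCODE annotation for 44565 of 48795 identifiers (91.3%). Groups came from the genotype labels, and replicates are numbered in accession order.

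Tests used limma 3.58.1 (R 4.3.3) with a trended, robust prior on log2(value + 1), for genes that reached 10 in 5 or more libraries, 2-sided, with Benjamini-Hochberg adjustment over all of them, at a threshold of 0.05, so fold changes of low genes are understated. limma took the place of DESeq2, the test of the study, which was run with edgeR 4.0.16 (DESeq2 1.42.0) on the recovered reads as an alternative. Scripts were tested on simulated data. Promoter letters are from RefSeq. The genes and lists were chosen with earlier results of these data known. Full values are given for genes called in a comparison (over the 20 hearts as lowest, median and highest), for the largest change of each role in each strain and for the most abundant gene of each role. Other genes were picked for single hearts after their values were seen.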

Additional observations from a re-analysis of the deposited data

Results flagged for a closer look

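In 10 of the 140 groups of 5 values (35 genes in 4 groups), 1 heart stood apart by Dixon's test (gap over range above 0.71), where chance gives about 1 in 20 groups. The same count over all genes was not made, so the 10 cannot be read as particular to the 35 genes. Of the 10, 3 were low values of WT replicate 5 of the Dp3Tyb cohort in genes whose slope on the mitochondrial share was called: Slc16a1 at 1609 (others 2147 to 2409), Pfkm at 1782 (others 2360.2 to 2643) and Eno3 at 1518 (others 2283 to 2697). Hif1a in the same heart was high, at 10297 (others 6109 to 6654). This heart had 19.5% mitochondrial reads. Vhl was low in Dp3Tyb replicate 5, at 372 (others 507 to 531), a heart with 15.5%.

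Ts1Rhr replicate 3 was high for the transcripts of a glucose and a lactate transporter, with Slc2a1 at 4339.9 (others 2844 to 3072) and Slc16a3 at 2624 (others 1402 to 1673). WT replicate 5 of the Ts1Rhr cohort was high for Aldoc at 196 (others 93.2 to 113) and Ldhb at 5224 (others 4036 to 4219.8). Adm was high in Ts1Rhr replicate 1, at 97.0 (others 52.4 to 61.5).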

How the results depend on the processing

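No paired analysis was possible because the labels give no replicate numbers and do not tie hearts to litters. Neighbouring sample numbers hold a WT and a mutant heart of the same sex as inferred from their reads, but no label calls them pairs and order was not used to pair hearts. None of the 35 genes was called in either strain under any of the 22 settings each, the smallest adjusted p being 0.382 in Dp3Tyb and 0.183 in Ts1Rhr. The sign held in every setting for 11 and 12 of the 35 genes. Slc16a1 in Dp3Tyb turned from -0.03 to 0.0057 and 0.0091 without WT replicates 2 and 4 and to 0.096 without Dp3Tyb replicate 5, over a range of -0.14 to 0.10 when a heart was left out. The count over all genes in Dp3Tyb was 8, and became 4 with no filter, 34 by DESeq2, 57 with array weights, 4 with a sex term, 45 with the mitochondrial share as covariate, 30 without the libraries of over 10% mitochondrial reads, and 2 to 13 without 1 heart. That in Ts1Rhr was 4, and became 25 by DESeq2, 2 with a plain prior, 16 with array weights, 25 with the share as covariate, 0 without the libraries of over 10%, and 1 to 6 without 1 heart. That of the strain difference was 2, and became 0 with no filter or a sex term and 0 to 3 without 1 heart. The 9422 genes called on the share became 5686 with depth as covariate and 5646 in the Ts1Rhr cohort alone. Of the 35 genes, 12 to 18 were called on it. By defect label, array weights called 2 of the 35 genes, Hif1a and Vhl, and 1974 of all genes, where limma without weights called 0 and DESeq2 3. The median of the hypoxia group in Ts1Rhr moved from -0.10 to -0.38 without the libraries of over 10%, which leaves WT replicates 3 and 5. The causes were not tested. In the slope on the share, Hk1, Ldha, Pdk2, Pdk3, Pdk4 and Ddit4 lost their call in 11 combinations of gene and alternative, besides those that leave out a heart. Depth limits the low genes most: Ankrd37 rested on as few as 20 reads in a heart.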
